A study of Homo sapiens with 6 samples.

Results

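The ID family (ID1, ID2, ID3 and ID4) and 4 feedback genes of bone morphogenetic protein (BMP) signalling (SMAD6, SMAD7, SMAD9 and BAMBI) were followed in H9, a line of human embryonic stem cells. The 8 genes were taken by symbol from a table of 62703 genes, each symbol occurring once. The table gives TPM, a transcript level per length that is scaled to the same total in each library. Cells had received a small interfering RNA against NPM1 (siNPM1, called siB23 in the treatment labels, 3 libraries) or a control (siControl, 3 libraries), and the series design describes 3 biological replicates a group. The series title ties NPM1 to BMP4 protein and TGF-β signalling, the pathways on which these genes report. The sequence of the duplexes, the culture medium and the time of harvest are not given in the sources used here. Of the 8 genes, 7 reached the mean of 1 TPM over the 6 libraries required for a test, and SMAD9 did not.

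BMP ligands bind receptor kinases that phosphorylate SMAD1, SMAD5 and SMAD9, which enter the nucleus with SMAD4 and switch on target genes. The ID genes are among the most direct of these targets. Their proteins carry a helix-loop-helix but no DNA-binding basic region, so they pair with E proteins such as TCF3 and keep them off DNA. SMAD6 and SMAD7 are inhibitory SMADs, induced by the same signals, which block receptors and recruit ubiquitin ligases. SMAD6 acts mainly on BMP signals, and SMAD7 on BMP as well as activin and TGF-β signals. BAMBI encodes a decoy receptor that lacks a kinase domain. In human pluripotent cells, activin and nodal signals support self-renewal, while BMP drives differentiation.

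The sequence upstream of the transcription start is shown for 5 of the genes, since the ID genes took different profiles over the libraries and the SMAD6 and BAMBI windows held SMAD-type words. RefSeq held a promoter for all 8 genes. Each window is the 250 bases before the start given by RefSeq, read 5′ to 3′ on the gene's strand. Capitals mark every match, on either strand, of GGCGCC (a GC-rich word bound by BMP-type SMADs), GTCTAGAC (the palindromic SMAD word), CAGAC or its complement GTCTG (the short SMAD word) and TATAAA (the TATA box).
ID1, GRCh38.p14 chr20:31605039-31605288, plus strand: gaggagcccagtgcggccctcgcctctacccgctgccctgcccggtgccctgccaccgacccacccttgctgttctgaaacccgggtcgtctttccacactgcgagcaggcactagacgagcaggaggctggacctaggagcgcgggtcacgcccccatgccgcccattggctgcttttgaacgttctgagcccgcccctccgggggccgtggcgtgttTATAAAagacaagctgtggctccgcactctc
ID3, GRCh38.p14 chr1:23559502-23559751, minus strand: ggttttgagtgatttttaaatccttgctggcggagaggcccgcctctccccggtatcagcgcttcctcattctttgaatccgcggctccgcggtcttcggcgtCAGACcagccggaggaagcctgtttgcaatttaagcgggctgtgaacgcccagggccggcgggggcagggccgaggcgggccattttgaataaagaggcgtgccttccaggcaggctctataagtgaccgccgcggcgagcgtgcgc
ID4, GRCh38.p14 chr6:19837120-19837369, plus strand: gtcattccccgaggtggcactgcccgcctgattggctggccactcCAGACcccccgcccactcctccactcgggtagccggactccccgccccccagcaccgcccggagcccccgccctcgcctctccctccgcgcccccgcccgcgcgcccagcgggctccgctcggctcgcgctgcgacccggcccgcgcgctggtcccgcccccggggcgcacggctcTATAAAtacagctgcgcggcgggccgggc
SMAD6, GRCh38.p14 chr15:66701986-66702235, plus strand: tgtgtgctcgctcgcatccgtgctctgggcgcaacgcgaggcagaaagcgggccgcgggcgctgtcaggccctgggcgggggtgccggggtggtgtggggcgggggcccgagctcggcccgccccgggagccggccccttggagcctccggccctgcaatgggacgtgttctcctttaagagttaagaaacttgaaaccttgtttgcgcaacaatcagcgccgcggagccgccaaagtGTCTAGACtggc
BAMBI, GRCh38.p14 chr10:28677271-28677520, plus strand: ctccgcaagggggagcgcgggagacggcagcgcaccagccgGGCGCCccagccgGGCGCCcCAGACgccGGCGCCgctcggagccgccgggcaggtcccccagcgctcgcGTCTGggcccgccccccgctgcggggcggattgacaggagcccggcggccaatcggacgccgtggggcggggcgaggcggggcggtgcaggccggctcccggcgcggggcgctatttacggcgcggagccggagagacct
The BAMBI window held GGCGCC 3 times, at -209 to -204, -196 to -191 and -181 to -176 relative to the RefSeq start, and the short word 2 times, and was the only one of the 8 genes with GGCGCC there. The GENCODE gene models of ID1, SMAD6 and BAMBI begin inside these windows, that of ID3 upstream of its window and that of ID4 downstream of it. SMAD6 held the palindromic word at -12 to -5, ID3 and ID4 each held the short word once, and ID1 and ID4 held TATAAA at -31 to -26 and -29 to -24. SMAD7, whose windows are not shown, also held the short word. It lay at -217 to -213 and -128 to -124 of RefSeq start 1, and at -193 to -189 of start 2. The window of start 2 also held TATAAA, at -35 to -30. Of 35116 RefSeq promoter windows of this length, 16.4% held GGCGCC, 0.182% the palindrome, 38.0% the short word and 6.80% TATAAA. The words are matches of letters in a short window and no measured binding sites.

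NPM1, which encodes the nucleolar protein nucleophosmin, checked the labels: it stood at 173, 165 and 238 TPM in siNPM1 replicates 1 to 3, against 3109, 2969 and 3132 TPM in siControl replicates 1 to 3 (log2 fold change -4.01, SE 0.157, limma, adjusted p = 0.000852). The libraries did not separate by group over all genes. siControl replicate 2 lay with the siNPM1 libraries on the first principal component, at -28.1 beside -32.2 to -30.4, away from 59.9 and 61.7 for siControl replicates 1 and 3. siNPM1 replicate 1 stood alone on the second, at 48.7 beside -32.2 to 2.60 for the other libraries. Of 7 pluripotency markers all were detected, with summed levels of 2703 to 3361 TPM in siNPM1 and 3078 to 3402 TPM in siControl. The largest part was POU5F1, at 1375 to 1393 TPM in siNPM1 and 1706 to 2266 TPM in siControl, without overlap. NANOG was also lower without overlap. SOX2, LIN28A, DNMT3B, SALL4 and ZFP42 had positive log2 fold changes with overlapping groups, and 0 of the 7 passed. The endoderm markers SOX17, FOXA2, GATA6 and GATA4 stayed below 1 TPM in each library. The sequencing depth is unknown from TPM. In a bulk library, fewer cells of a type and less RNA per cell cannot be told apart.

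None of the 7 tested genes passed the threshold with all 6 libraries, an adjusted p under 0.05 over 15768 genes, which 0.0254% of all genes passed (limma on log2(TPM + 1)). At an unadjusted p under 0.05, 2 of the 7 passed, ID3 and ID4, both higher in siNPM1, beside 19.7% of all tested genes, 13.2% higher and 6.45% lower. ID3 and ID4 were also the only 2 whose groups did not overlap, both higher in siNPM1, beside 16.2% of all genes that were higher without overlap. 0 of the 7 were lower without overlap, beside 8.55%. The 7 log2 fold changes of siNPM1 over siControl had a median of 0.65, that of SMAD7, beside 0.10 for all tested genes. For 3 against 3 libraries the exact two-sided permutation test cannot give a p below 0.1.

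**Figure D1:**
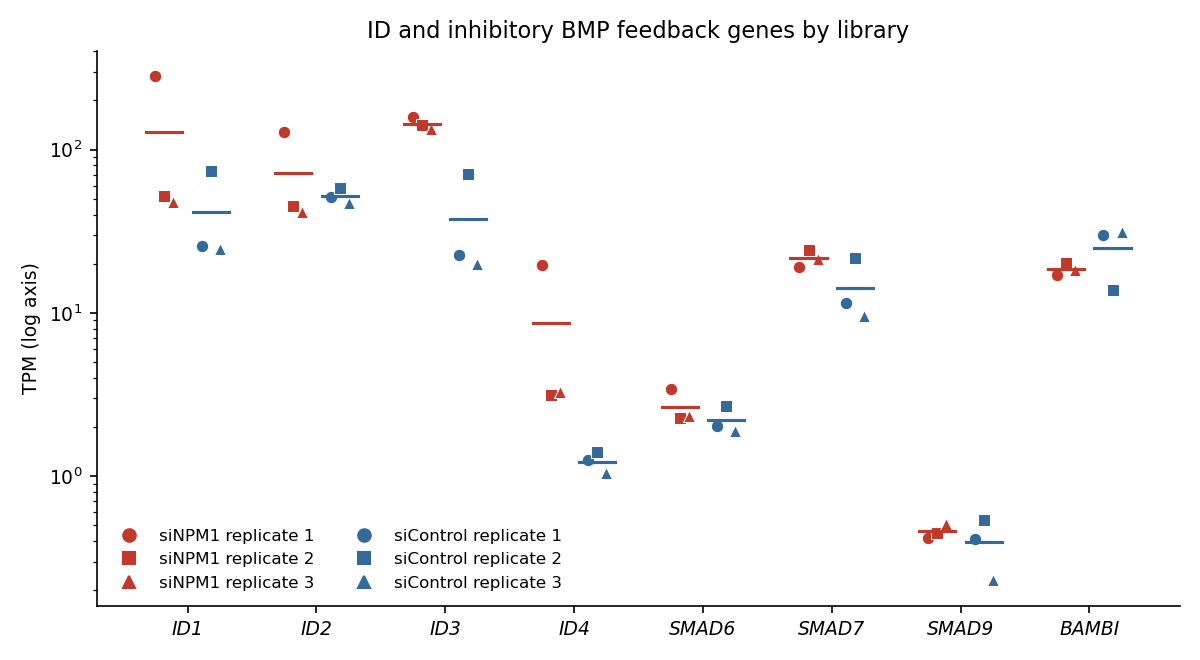
TPM on a log axis for the 8 genes in each library, siNPM1 in red left of siControl in blue, with the marker shape giving the replicate and the horizontal line the group mean. ID3 was between 133 and 158 TPM in the siNPM1 libraries and between 19.9 and 70.8 TPM in siControl, while ID1, ID2 and ID4 had their highest value in siNPM1 replicate 1.

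ID3 had the largest log2 fold change of the family on the log2(TPM + 1) scale and the most even level among siNPM1 libraries. ID4 was slightly above it at a pseudocount of 0.1 (2.19 for ID4, 2.18 for ID3) and above it with siControl replicate 2 as the only control (1.58 for ID4, 1.01 for ID3). ID3 (ENSG00000117318, protein-coding, GRCh38 chromosome 1, 23557918 to 23559794, minus strand) averaged 144 ± 12.3 TPM in siNPM1 and 37.7 ± 28.7 TPM in siControl (SD, n = 3 each). By library it stood at 158, 141 and 133 TPM in siNPM1 replicates 1 to 3, and at 22.5, 70.8 and 19.9 TPM in siControl replicates 1 to 3. Every siNPM1 library was above every siControl library, and siControl replicate 2 lay between the siNPM1 libraries and the other 2 controls. The log2 fold change was 2.14 (SE 0.449, limma, adjusted p = 0.179; exact permutation p = 0.1). Without siControl replicate 2 it was 2.71 and passed (adjusted p = 0.00129), as did 24.1% of all genes in the higher direction, and with that library as the only control it was 1.01 and did not pass (adjusted p = 0.352), as 0.171% of all genes did.

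ID1, the classical early BMP target, was high in a single siNPM1 library. ID1 (ENSG00000125968, protein-coding, chromosome 20, 31605283 to 31606515, plus strand) was at 282, 52.0 and 47.8 TPM in siNPM1 replicates 1 to 3. In siControl replicates 1 to 3 it was at 25.7, 73.5 and 24.6 TPM. The groups overlapped, since siControl replicate 2 exceeded siNPM1 replicates 2 and 3. Its log2 fold change was 1.28 (SE 0.749, limma, adjusted p = 0.354). Without siNPM1 replicate 1 the value was 0.46 (adjusted p = 0.618, in a fit that 0.0698% of all genes passed), and with siControl replicate 2 as the only control it was 0.27 (adjusted p = 0.946). siNPM1 replicate 1 held 5.66 times the mean ID1 level of the other 2 siNPM1 libraries, a log2 difference that 0.361% of tested genes reached in that direction.

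ID2 and ID4 shared the high value in siNPM1 replicate 1 and differed elsewhere. ID2 (ENSG00000115738, protein-coding, chromosome 2, 8678845 to 8684453, plus strand) was at 129, 45.2 and 41.3 TPM in siNPM1 and at 50.9, 58.2 and 47.0 TPM in siControl. In siNPM1 replicates 2 and 3 it lay below each siControl library, so its log2 fold change of 0.26 (SE 0.415, limma, adjusted p = 0.727) became -0.26 without siNPM1 replicate 1 (adjusted p = 0.388). ID4 (ENSG00000172201, protein-coding, chromosome 6, 19837386 to 19840684, plus strand) was at 19.7, 3.16 and 3.27 TPM in siNPM1, against 1.25, 1.40 and 1.04 TPM in siControl. Each siNPM1 library was above each siControl library, siControl replicate 2 included. The log2 fold change of ID4 was 1.69 (SE 0.615, limma, adjusted p = 0.237), and 0.92 without siNPM1 replicate 1 (adjusted p = 0.280). ID4 and ID2 each overlap an antisense gene. The partner of ID4, AL022068.1, was listed at 0.34 to 0.82 TPM in siNPM1 and 0 to 0.17 TPM in siControl, and that of ID2, ID2-AS1, at 0.80 to 2.16 TPM in siNPM1 and 0.79 to 1.62 TPM in siControl. The strand setting of the counting is not given, so reads of ID4 or ID2 and the partner cannot be told apart where they overlap.

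Summed over the 4 genes, ID transcripts amounted to 588, 241 and 226 TPM in siNPM1 replicates 1 to 3, against 100.4, 204 and 92.5 TPM in siControl replicates 1 to 3. The sums of the groups did not overlap, although siControl replicate 2 lay only 21.9 TPM below siNPM1 replicate 3. The makeup of the sum also varied. ID2 gave 19.6% ± 1.96 of the ID transcripts in siNPM1 and 43.4% ± 12.8 in siControl (SD, n = 3 each), with 18.3% to 21.9% in siNPM1 libraries and 28.6% to 50.8% in siControl libraries. ID3 gave 58.4% and 59.1% in siNPM1 replicates 2 and 3, but 26.8% in siNPM1 replicate 1, where ID1 gave 48.0%. The ratio of ID3 to ID1 was 0.558, 2.71 and 2.79 in siNPM1 replicates 1 to 3, and 0.874, 0.964 and 0.807 in siControl replicates 1 to 3. So the 3 siNPM1 libraries lay on both sides of the narrow siControl range. No test was made on these sums and shares.

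**Figure D2:**
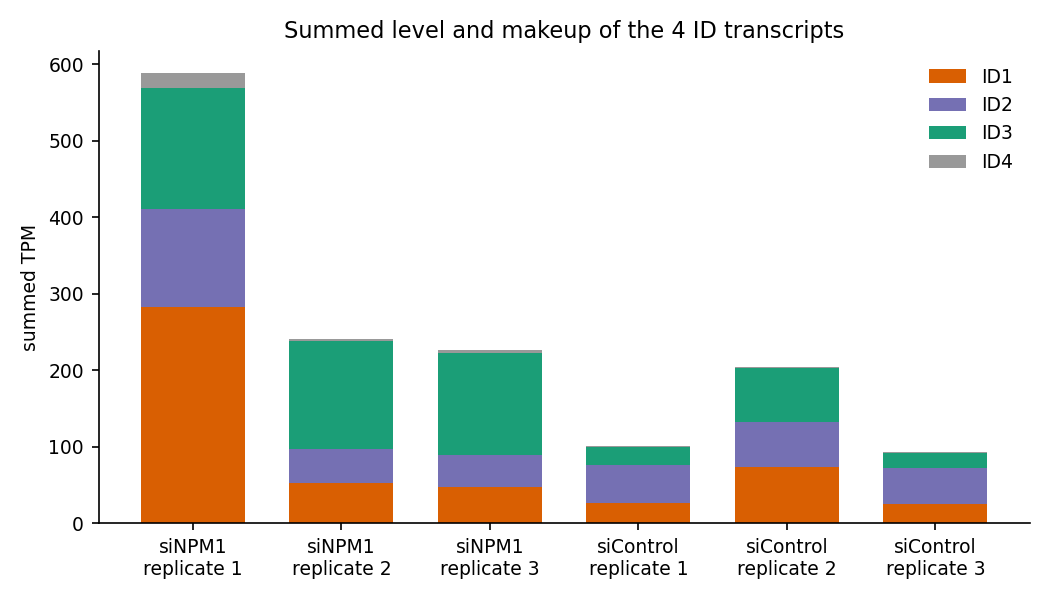
Stacked TPM of ID1, ID2, ID3 and ID4 in each library, siNPM1 on the left. The bars reach 588, 241 and 226 TPM in siNPM1 and 100.4, 204 and 92.5 TPM in siControl, with ID3 the largest part in siNPM1 replicates 2 and 3 and ID1 the largest part in siNPM1 replicate 1.

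The inhibitory SMADs lay lower than ID1 to ID3, and their order was the same in each library, SMAD7 above SMAD6. SMAD7 (ENSG00000101665, protein-coding, chromosome 18, 48919853 to 48952052, minus strand) was at 19.2, 24.3 and 21.4 TPM in siNPM1 and at 11.4, 21.7 and 9.51 TPM in siControl. siControl replicate 2 lay among the siNPM1 libraries, and siControl replicates 1 and 3 lay below them. The log2 fold change was 0.65 (SE 0.293, limma, adjusted p = 0.271). It was 0.98 without siControl replicate 2, which passed as higher (limma, adjusted p = 0.00689) like 24.1% of all genes. With that library as the only control it was -0.01. SMAD6 (ENSG00000137834, protein-coding, chromosome 15, 66702228 to 66782848, plus strand) was at 3.40, 2.27 and 2.32 TPM in siNPM1 and at 2.04, 2.70 and 1.89 TPM in siControl, with overlapping groups (log2 fold change 0.19, SE 0.225, limma, adjusted p = 0.640). Its sign changed after quantile normalization (-0.058). The ratio of SMAD7 to SMAD6 was 5.65, 10.7 and 9.21 in siNPM1 and 5.60, 8.03 and 5.03 in siControl.

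BAMBI was the only tested gene of the 7 with a negative log2 fold change. BAMBI (ENSG00000095739, protein-coding, chromosome 10, 28677342 to 28682939, plus strand) was at 17.2, 20.3 and 18.2 TPM in siNPM1 and at 30.1, 13.8 and 31.1 TPM in siControl. siControl replicates 1 and 3 lay above the siNPM1 libraries and siControl replicate 2 below them. With all libraries the log2 fold change was -0.33 (SE 0.306, limma, adjusted p = 0.532). It was -0.70 without siControl replicate 2, which passed as lower (adjusted p = 0.00741) like 12.9% of all genes, and 0.40 with that library as the only control (adjusted p = 0.480). SMAD9 (ENSG00000120693, protein-coding, chromosome 13, 36844831 to 36920765, minus strand), which encodes a BMP-activated SMAD and is itself induced by BMP, was listed at 0.42, 0.45 and 0.51 TPM in siNPM1 and at 0.41, 0.54 and 0.23 TPM in siControl. Its values overlapped, and it was below the limit for a test.

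**Figure D3:**
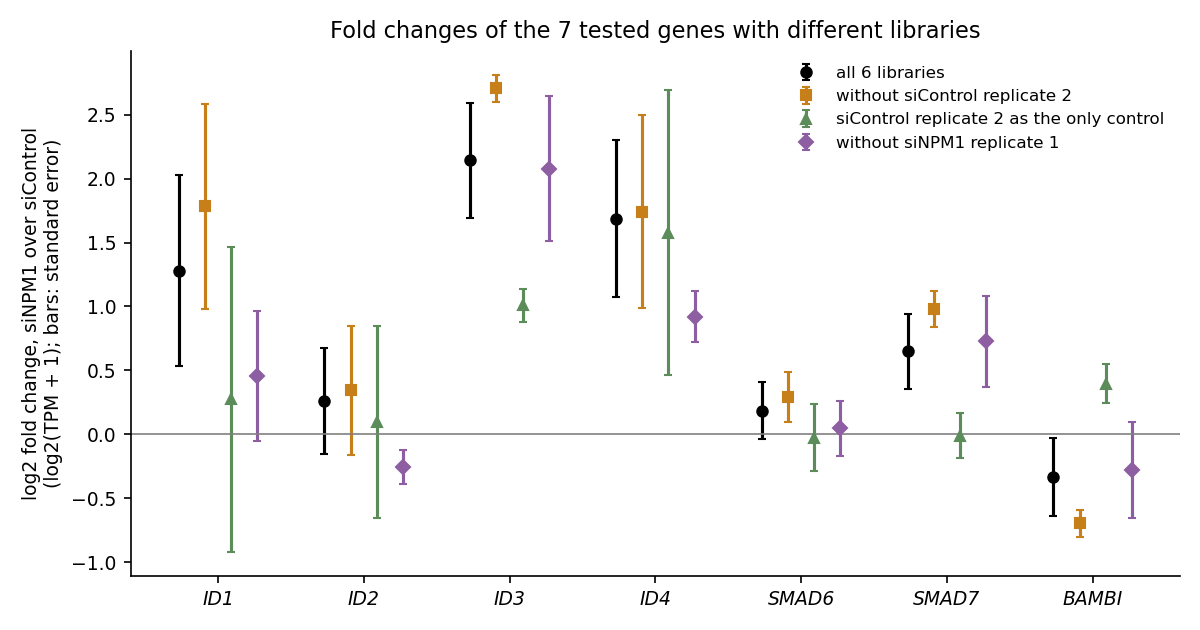
Log2 fold change of siNPM1 over siControl on the log2(TPM + 1) scale for the 7 tested genes, with bars for the standard error of the limma fit, using all libraries, leaving out siControl replicate 2, keeping it as the only control, or leaving out siNPM1 replicate 1. ID3 ranges from 1.01 to 2.71 over these sets, SMAD7 from -0.01 to 0.98 and BAMBI from -0.70 to 0.40.

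The order of the mean levels was not the same in both groups. In siNPM1, ID3 was at 144 ± 12.3, ID1 at 127 ± 134 and ID2 at 71.8 ± 49.4 TPM. The libraries of ID1 overlapped those of ID3 and of ID2, while each siNPM1 library of ID3 was above each of ID2. SMAD7 at 21.6 ± 2.55 and BAMBI at 18.6 ± 1.62 TPM followed, their libraries overlapping. ID4 at 8.72 ± 9.53, SMAD6 at 2.66 ± 0.638 and SMAD9 at 0.460 ± 0.0458 TPM were last. In siControl, ID2 had the highest mean at 52.0 ± 5.71 TPM, before ID1 at 41.3 ± 27.9 and ID3 at 37.7 ± 28.7 TPM. ID2 was above both in siControl replicates 1 and 3 and below both in siControl replicate 2. By mean, BAMBI at 25.0 ± 9.71 and SMAD7 at 14.2 ± 6.54 TPM followed. By library, BAMBI was above ID1 and ID3 in siControl replicates 1 and 3, and below SMAD7 in siControl replicate 2. The lowest means were SMAD6 at 2.21 ± 0.431, ID4 at 1.23 ± 0.181 and SMAD9 at 0.393 ± 0.156 TPM (SD, n = 3 in each group). ID4 was below SMAD6 in each siControl library, and above it in each siNPM1 library.

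Several of these values rested on single libraries. siNPM1 replicate 1 was the highest of the 6 libraries for 5 of the 7 tested genes, ID1, ID2, ID3, ID4 and SMAD6, beside 25.3% of all tested genes. It was more than 2-fold above each other library for 3 of the 7 tested genes, ID1, ID2 and ID4, beside 1.31% of all tested genes, a rule chosen after the values were seen. siNPM1 replicate 1 held 6.13 times the ID4 level and 2.98 times the ID2 level of the other 2 siNPM1 libraries on average, but 1.15 times that of ID3 and 0.841 times that of SMAD7. siControl replicates 1 and 3 were both below the other 4 libraries for 5 of the 7, ID1, ID3, ID4, SMAD6 and SMAD7, beside 35.7% of all tested genes, and both above them for BAMBI, beside 20.9%. With siNPM1 replicates 2 and 3 set against siControl replicates 1 and 3, a comparison also chosen after the values were seen, ID1, ID3, ID4 and SMAD7 passed as higher (limma, adjusted p = 0.00260, 0.00125, 0.00806 and 0.00557), beside 30.3% of all genes, and BAMBI as lower (adjusted p = 0.00652), beside 19.4%. In this comparison the log2 fold change of ID3 was 2.64, of SMAD7 1.06, of ID4 0.98, of ID1 0.96 and of BAMBI -0.64. In siControl replicates 1 and 3 the stress transcription factor ATF3, chosen after its values were seen, was at 352 and 382 TPM, against 13.0 TPM in siControl replicate 2 and 24.6 to 28.9 TPM in siNPM1. The 7 stress genes listed summed to 1736 and 1853 TPM there, against 404 TPM in siControl replicate 2 and 357 to 433 TPM in siNPM1. All 7 stress genes had a negative log2 fold change with 0 past the threshold. Without siControl replicate 2 all 7 passed as lower, beside 12.9% of all genes. The list was chosen with earlier results known, so these counts carry no weight. The smallest p-values of the stress list were those of ATF4 and CHAC1, with log2 fold changes of -1.01 and -1.69 (limma, adjusted p = 0.218 and 0.242). Mitochondrially encoded transcripts made up 11.0% and 11.1% in siControl replicates 1 and 3, 23.3% in siControl replicate 2 and 18.7% to 21.6% in siNPM1. Their part in the ID3, SMAD7 and BAMBI values was not tested.

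Upstream of the ID genes, no BMP ligand, receptor or signalling SMAD passed the threshold. Of 11 ligands listed, 4 were tested, 2 positive and 2 negative (median log2 fold change 0.14, 0.000627 without siNPM1 replicate 1 and -0.0082 without siControl replicate 2). GDF7, a negative one at 0.72 to 0.85 TPM in siNPM1, reached the mean of 1 TPM only through siControl libraries. Its sign, and the counts and medians that include it, therefore carry no weight. BMP4 was at 12.1, 5.31 and 6.65 TPM in siNPM1 and at 6.29, 2.61 and 4.77 TPM in siControl (log2 fold change 0.69, limma, adjusted p = 0.318). It was highest in siNPM1 replicate 1, as were ID1, ID2 and ID4, and lowest in siControl replicate 2, where ID1 and ID3 were above the other controls. BMP7 had a log2 fold change of -0.33 (limma, adjusted p = 0.404). Of 13 receptors, co-receptors and SMADs, 11 were tested, 6 positive and 5 negative, with a median of 0.22 beside 0.10 over all tested genes, and of 0.11 without siNPM1 replicate 1. SMAD1, which carries the BMP signal to the ID genes, was at 15.2, 14.5 and 16.2 TPM in siNPM1 and at 8.92, 16.9 and 7.69 TPM in siControl, the same order of libraries as SMAD7 in siControl. It and SMAD5 (log2 fold change -0.20, limma, adjusted p = 0.448) are named here after their values were seen. The smallest p-values of the list belonged to the activin and BMP receptor ACVR2B and the co-receptor RGMB, with log2 fold changes of -0.73 and -0.60 (limma, adjusted p = 0.212 and 0.216). Of the 6 secreted antagonists tested of 13 listed, 4 were positive and 2 negative (median 0.29), against 3 and 3 without siNPM1 replicate 1 (median 0.029). One of them, CER1, reached the mean of 1 TPM only through siNPM1 libraries. FSTL3, a follistatin-like binder of activins, had 0.76 and NBL1, a DAN family antagonist, -0.46 (limma, adjusted p = 0.224 and 0.247).

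A list of other intracellular regulators of SMAD signalling, most of them brakes, was split evenly. Of its 21 genes (ubiquitin ligases, phosphatases and repressors among them), 20 were tested, 10 positive and 10 negative. The median was 0.05 (0.026 without siNPM1 replicate 1), and 0 passed beside 0.0254% of all genes. RNF111 and USP15, with log2 fold changes of 0.37 and 0.12, are counted among the positive ones but are not brakes. So the split is not one of brakes alone. SKI, a repressor that binds SMADs, was at 18.7, 17.9 and 19.6 TPM in siNPM1 and at 8.84, 15.8 and 8.42 TPM in siControl (log2 fold change 0.77, limma, adjusted p = 0.221). Its groups did not overlap, and siControl replicate 2 lay nearest to siNPM1. CTDSP1, a phosphatase, was at 16.4, 6.68 and 7.13 TPM in siNPM1 and at 4.07, 5.68 and 3.17 TPM in siControl (log2 fold change 0.98, limma, adjusted p = 0.237). Like ID1 and ID4, it was highest in siNPM1 replicate 1. Without siControl replicate 2, 4 of the 20 passed as higher (SKI, FKBP1A, WWP1 and RNF111) and 3 as lower (TGIF1, CTDSP2 and PPM1A), beside 24.1% and 12.9% of all genes. In that fit SMAD1, the co-receptor ENG and FSTL3 also passed as higher, and ACVR2B and RGMB as lower.

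Among 14 other genes that BMP induces in some tissues, 5 were expressed enough for a test, and 0 passed. Of these 5, TBX3 and TFAP2A reached the mean of 1 TPM only through siNPM1 libraries, so the 4 positive and 1 negative signs and the median of 0.39 carry no weight. Without siControl replicate 2 the median was 0.72 and TBX3 passed as higher, beside 24.1% of all genes. These carry no weight for the same reason. TBX3, a T-box repressor, was at 2.36, 2.96 and 3.82 TPM in siNPM1 and at 0.16, 0.49 and 0.22 TPM in siControl (log2 fold change 1.64, limma, adjusted p = 0.134). Like ID3 it was high in each siNPM1 library. TFAP2A, a transcription factor of surface ectoderm and amnion, was at 9.18, 0.40 and 0.15 TPM in siNPM1 and at 0.08, 0.10 and 0.04 TPM in siControl (log2 fold change 1.24, limma, adjusted p = 0.389). Its highest value by far, like those of ID1 and ID4, was in siNPM1 replicate 1. The list of 10 amnion and trophoblast markers summed to 80.5 to 90.8 TPM in siNPM1 and 98.7 to 126 TPM in siControl, most of it GABRP, and 7 of the 10 stayed under 1 TPM in each library, GATA3, CDX2 and HAND1 among them. The other 2 tested markers went the other way: TFAP2A, given above, and KRT7, a keratin, at 9.68, 5.36 and 5.55 TPM in siNPM1 and 3.44 to 3.64 TPM in siControl (log2 fold change 0.76, limma, adjusted p = 0.223). CGA was listed at 0 in all 6. Of 6 fibroblast markers DCN and LUM were listed at 0 in all 6 libraries. The sum was 133 to 348 TPM in siNPM1 and 401 to 430.2 TPM in siControl, most of it THY1. The collagen gene COL1A1 was at 14.5 to 18.8 TPM in siNPM1 and 5.72 to 9.70 TPM in siControl (log2 fold change 1.04, limma, adjusted p = 0.179). COL1A2, another collagen gene, went the other way with overlapping groups, at 26.06 to 32.29 TPM in siNPM1 and 29.25 to 35.9 TPM in siControl (log2 fold change -0.15, limma, adjusted p = 0.554). The 5 primitive streak and mesoderm markers summed to 4.19 to 5.78 TPM in siNPM1 and 3.00 to 8.55 TPM in siControl. The 5 neural markers summed to 46.8, 28.5 and 24.9 TPM in siNPM1 replicates 1 to 3 and to 13.5 to 18.7 TPM in siControl, with PAX6 at 7.87 TPM in siNPM1 replicate 1 and at 0.85 to 1.90 TPM in the others. ZIC1, a zinc finger factor of neural tissue, was at 29.1, 23.5 and 20.1 TPM in siNPM1 and 11.4 to 16.8 TPM in siControl (log2 fold change 0.69, limma, adjusted p = 0.218). MAP2, a neuronal microtubule protein, was at 9.34, 3.46 and 3.41 TPM in siNPM1 and 0.18 to 0.79 TPM in siControl (log2 fold change 2.05, limma, adjusted p = 0.173). Both were higher in each siNPM1 library than in each siControl library, and neither passed. MAP2 reached the mean of 1 TPM only through siNPM1 libraries, so its direction carries no weight. The marker genes were named after their values were seen. Whether these bear on the ID values was not tested.

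Activin and nodal targets, the other SMAD branch, are given because SMAD7 and BAMBI also respond to it. Of 13 tested, 3 were positive and 10 negative with a median of -0.38, and 0 passed. CER1, a positive one, reached the mean of 1 TPM only through siNPM1 libraries, so its sign carries no weight. The median was -0.16 without siNPM1 replicate 1 and -0.17 without siControl replicate 2. In the latter fit TDGF1, NANOG and FOXH1 passed as lower, beside 12.9% of all genes. TDGF1, the nodal co-receptor, was at 450.4, 476 and 454 TPM in siNPM1 and at 859, 765 and 809 TPM in siControl (log2 fold change -0.81, limma, adjusted p = 0.1002), with no overlap. NANOG had a log2 fold change of -0.38 (limma, adjusted p = 0.212). LEFTY1, an inhibitor of nodal chosen here after its values were seen, was at 0.47, 12.5 and 8.52 TPM in siNPM1 and at 1.35, 59.5 and 1.27 TPM in siControl. It was lowest in siNPM1 replicate 1, where ID1, ID2 and ID4 were highest, and NODAL had its lowest value there too, 1.38 TPM beside 6.95 to 30.6 TPM in the other 5 libraries.

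None of the E proteins that ID proteins bind passed the threshold. Of 15 basic helix-loop-helix genes, 6 were tested, 3 positive and 3 negative with a median of -0.07 (-0.18 without siNPM1 replicate 1), and 0 passed. Without siControl replicate 2, HES6 passed as lower, beside 12.9% of all genes. TCF12 was at 50.7, 42.4 and 43.7 TPM in siNPM1 and at 62.0, 54.4 and 52.8 TPM in siControl (log2 fold change -0.30, limma, adjusted p = 0.253). Its siNPM1 libraries were all below its siControl libraries. HES6 had a log2 fold change of -0.48 (limma, adjusted p = 0.237). TCF3, the E protein with the highest level, was at 116, 90.3 and 85.1 TPM in siNPM1 and at 113, 93.6 and 121 TPM in siControl, with overlapping groups. The summed ID level was above the TCF3 level in each siNPM1 library, by 5.09-fold in siNPM1 replicate 1. It was also above it in siControl replicate 2, by 2.18-fold beside 2.67-fold and 2.65-fold in siNPM1 replicates 2 and 3, and below it in siControl replicates 1 and 3.

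**Figure D4:**
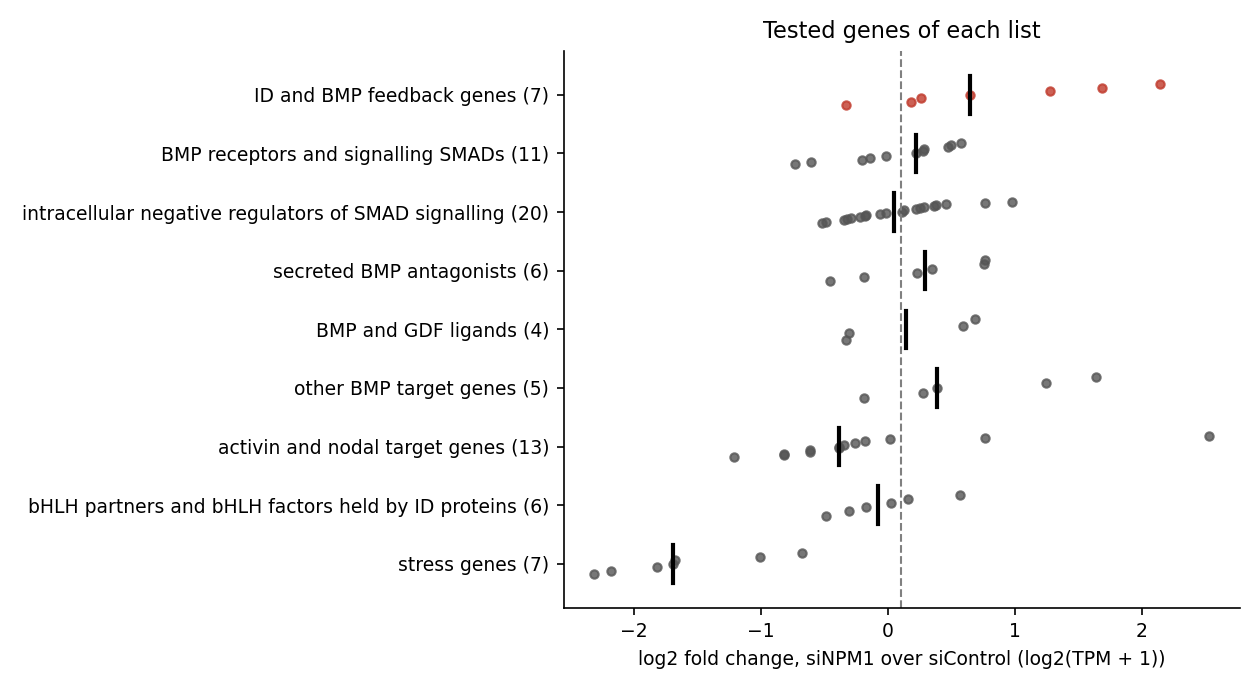
Log2 fold change of siNPM1 over siControl for each tested gene of the ID and BMP feedback set and of the lists, one point a gene, with the number tested in parentheses, a black bar at the median and a dashed line at 0.10, the median of all tested genes. The 7 ID and feedback genes run from -0.33 for BAMBI to 2.14 for ID3, and the stress genes from -2.31 to -0.67.

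**Figure D5:**
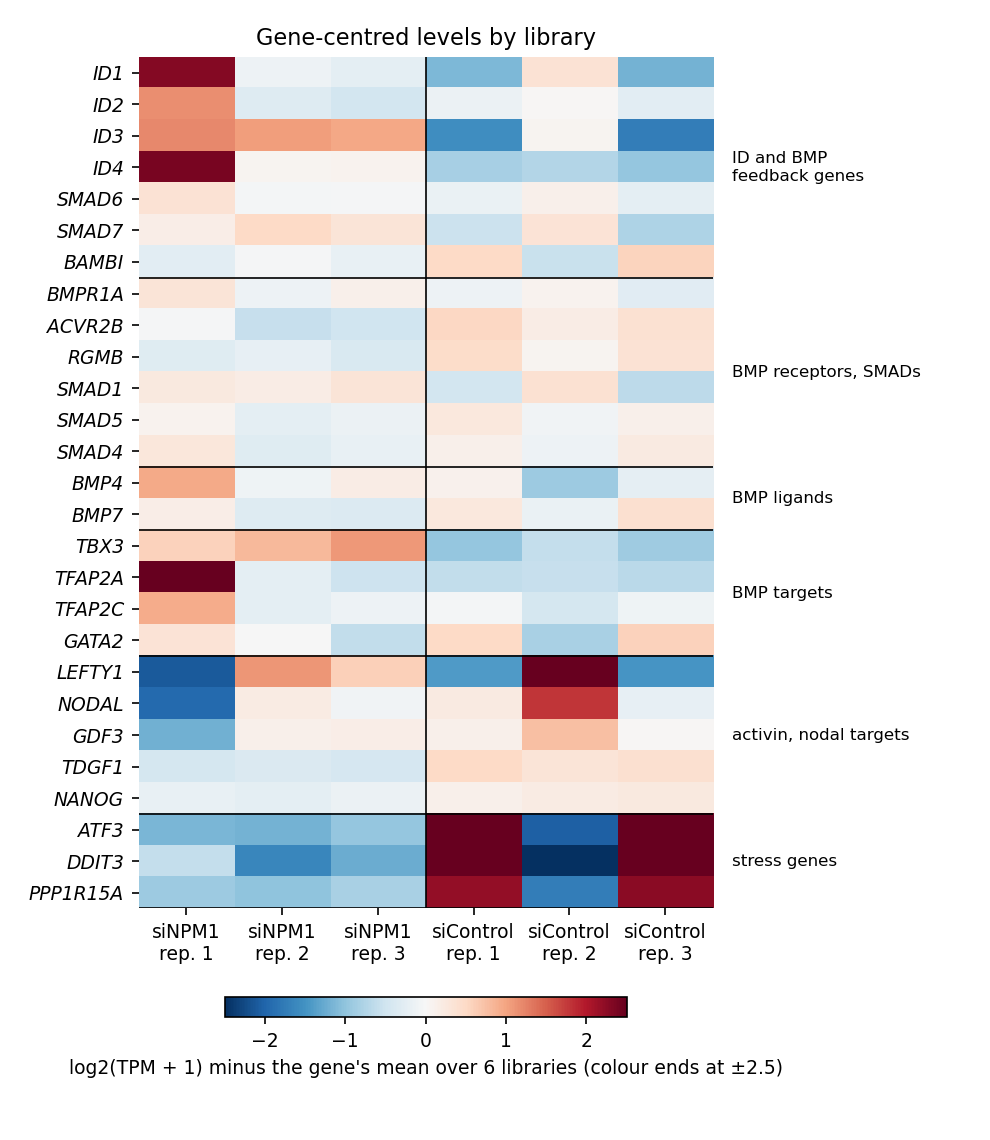
Log2(TPM + 1) minus the gene's mean over the 6 libraries, in colour, for the 7 tested ID and feedback genes and for genes of the pathway lists picked after their values were seen, siNPM1 libraries on the left. ID1, ID4 and TFAP2A are darkest in siNPM1 replicate 1, ID3 is high in all 3 siNPM1 libraries, and ATF3 and DDIT3 are high in siControl replicates 1 and 3.

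Profiles were compared by the root mean square difference of gene-centred log2(TPM + 1) values over the 6 libraries. Among the ID genes ID1 and ID4 were the closest pair, at 0.499, and ID2 and ID3 the farthest, at 1.15. BAMBI lay farther from ID3 than from any other, at 1.55. The search covered the protein-coding genes whose mean reached 5 TPM, other than the gene itself (9843, or 9844 for ID4 and SMAD6, whose own mean lies below it). The nearest to ID1 were APELA at 0.211, HES3 at 0.297 and SOX21 at 0.312. APELA, which encodes a peptide hormone of embryonic stem cells, was at 113, 19.8 and 22.0 TPM in siNPM1 and at 9.76, 23.5 and 12.4 TPM in siControl, repeating the single high library of ID1. The nearest to ID4 were OTX2 at 0.344, PRODH at 0.348 and APELA at 0.370. Near ID2 lay SYT6 at 0.125 and NUDT7 at 0.151. To ID3, ZNF594 at 0.198, CCDC71 at 0.222 and HPDL at 0.224 were nearest. HPDL was at 14.6, 14.8 and 15.6 TPM in siNPM1 and at 2.22, 8.12 and 2.37 TPM in siControl, with the middle value of siControl replicate 2 that ID3 had. Near SMAD7 lay UBXN8 at 0.0494 and NIP7 at 0.0663. The nearest to SMAD6 were EMC2, ARHGEF16 and COMMD8 at 0.0271 to 0.0336, and to BAMBI SLC20A1, DCUN1D3 and RGS2 at 0.0560 to 0.0666. With 6 libraries and this many genes, some near profiles are found for any gene.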

How the data were processed

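Per the labels, RNA sequencing libraries of total RNA came from H9 cells, 3 for siNPM1 and 3 for siControl, grouped by title. The authors deposited 1 table of TPM values, built on GRCh38 according to the submitters' processing notes. No source used here gives the aligner, the counter, the annotation or the strand setting. Each library sums to the same total, so the depth behind a value is unknown and no counting interval is given. The 2 mean columns were not used.

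The 15768 genes whose mean over the 6 libraries reached 1 TPM were log2-transformed after adding a pseudocount of 1. The test was limma's (version 3.58.1, R 4.3.3), two-sided, using a variance trend and Benjamini-Hochberg adjustment over all genes and a threshold of 0.05. Fold changes are siNPM1 over siControl on this scale, which understates changes of low genes. The fit was tested on simulated data. Positions come from GENCODE 29, in which 92.9% of the identifiers were found, and promoter sequence from RefSeq (GRCh38.p14).

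The 8 genes, the pathway lists and the tests were chosen with earlier results of these data known. The named genes are the 8, NPM1, BMP4, the 2 genes of each pathway list with the smallest p where none passed, and the 3 nearest profiles of each tested gene, of which 1 for ID2 and 1 for SMAD7 are not reported here. All others were named after their values were seen. Of the 50-base stretches in transcripts of the 8 genes, at most 0.651% occur in another gene. There were 18 alternatives set out at the start and 1 added after the data were seen. They cover pseudocount, filter, scaling, replicate block, variance prior, array weights and leaving out libraries.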

Additional observations from a re-analysis of the deposited data

How the results depend on the processing

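With all 6 libraries, none of the 7 tested genes passed under other pseudocounts, filters, scalings, variance priors or the replicate block, and ID1, ID3 and ID4 kept a positive log2 fold change under every alternative that gave a value. ID4 was not tested at a mean of at least 5 TPM, nor was SMAD6. The count of 4 genes past the threshold became 1 without a filter on low values, 2 at a mean of at least 5 TPM, 7 without a variance trend and 9486 with array weights. Leaving out 1 library gave 1 to 5833 genes, the highest without siControl replicate 2, and siControl replicate 2 as the only control gave 27. With siControl replicate 2 as the only control, where the lone library is assumed to vary like the others, NPM1 had -3.96 and missed the threshold (limma, adjusted p = 0.0651), SMAD6 had -0.028, SMAD7 -0.010 and BAMBI 0.40. Array weights, which give less weight to libraries far from their group, made ID1 (1.08), ID3 (2.57), ID4 (1.09), SMAD7 (0.95) and BAMBI (-0.63) pass, while ID2 was at -0.11. In that fit 5771 of the 15768 tested genes passed as higher and 3715 as lower, so most genes passed. Over the fits that each left out 1 library, ID1 ranged from 0.46 to 1.78, ID2 from -0.26 to 0.55, ID3 from 1.82 to 2.71, ID4 from 0.92 to 2.08, SMAD6 from 0.05 to 0.29, SMAD7 from 0.42 to 0.98 and BAMBI from -0.70 to -0.14. The cause was not tested.

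A comparison added after the data were seen set siNPM1 replicates 2 and 3 against siControl replicates 1 and 3, without the library of each group that stood apart over all genes. It gave 7845 genes past the threshold, 30.3% of all as higher and 19.4% as lower. ID1 (0.96), ID3 (2.64), ID4 (0.98), SMAD7 (1.06) and BAMBI (-0.64) were among them, and ID2 had -0.17. Quantile normalization gave SMAD6 -0.058. The median of all genes was 0.10 as deposited, -0.02 after centring and 0.19 after rescaling without mitochondrial and ribosomal protein genes.

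With 3 libraries a group, it could not be settled whether replicate numbers in the titles pair the libraries. Same-numbered deviations had r of 0.0652, 0.0814 and -0.0383 over genes, and 4 of 6 libraries correlated best with their own number. The replicate block left 1 gene past the threshold and changed no call of the 8 genes (ID3 adjusted p = 0.262, limma). Depth is unknown, which limits SMAD9, SMAD6 and ID4 most.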
